A study of Mus musculus with 21 samples.

Results

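The change that the neurotoxin MPTP left in midbrain RNA was compared between 2 injection schedules, one in which the toxin was given last and one in which it was given first. Of the 21 mice of the series, the 12 of the MPTP and vehicle groups were compared, chosen by their labels alone. All were male C57BL/6 mice of 6 weeks that received daily intraperitoneal injections for 10 days. MPTP_M mice received vehicle (ddH2O) for 5 days and then MPTP at 30 mg/kg per day for 5 days, and are called recent MPTP here. MPTP mice received the same dose of MPTP for the first 5 days and vehicle for the next 5, and are called earlier MPTP. The vehicle mice of the pre-treatment experiment (Control_M) and of the delayed treatment experiment (CONTROL) received ddH2O throughout. Each group had 3 mice, numbered as replicates by the labels. The p-values measure only the spread between mice of a group, estimated from all groups of each experiment, the irisin groups included. The tissue was labelled as midbrain and, per the methods of the study, was nigral tissue dissected by hand.

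MPTP crosses into the brain, where it is converted to a toxic ion that dopaminergic neurons take up through the dopamine transporter and that blocks complex I of the mitochondrial respiratory chain. It is the standard toxin model of the loss of nigral dopaminergic neurons in Parkinson's disease. Immediate early genes are transcribed within minutes of a stimulus without new protein synthesis, and several of them respond in endothelial and glial cells as well as in neurons. Their transcripts are short-lived. The interval between the last injection and the collection of the tissue is not given in the labels used here. The comparison asked which genes answered MPTP differently when the toxin was the last injection and when vehicle followed it.

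The mice of the 2 schedules belonged to separate experiments with separate tables, so the time since the toxin and the experiment cannot be told apart. For this reason each change was taken within its own experiment, and the change with earlier MPTP was subtracted from the change with recent MPTP. Total counts were 66.7 to 75.6 M per mouse in the pre-treatment experiment and 48.8 to 77.2 M in the delayed one. Genes of the mitochondrial genome took 10.6 to 12.9% and 7.65 to 9.5% of the counts. Markers of dopaminergic neurons were present in every mouse, Th at 31.0 to 63.3 CPM (the count relative to the library's total, scaled by the TMM method within each experiment) and Slc6a3 at 15.3 to 106. Markers of neighbouring tissue differed between mice. Ttr, which marks the choroid plexus, exceeded 1000 CPM in 4 of the 12 mice, which were MPTP_M replicate 2, CONTROL replicates 1 and 2 and MPTP replicate 3. It lay at 2.86 to 7.26 CPM in the Control_M mice.

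The CONTROL mice of the delayed experiment stood apart from the rest of their experiment. In 712 of 21922 genes (3.25%), all 3 CONTROL mice lay above or below all 9 other mice, which included mice given irisin without MPTP (IRISIN). The same held for 0.981% of genes in IRISIN mice, 1.04% in MPTP mice and 0.78% in MPTP_IRISIN mice, which received both. Since the change with earlier MPTP is measured against these CONTROL mice, the called differences were also computed with the IRISIN mice as reference, an alternative added after seeing the data. IRISIN mice received ddH2O for 5 days and then irisin, a peptide released by muscle, at 200 ug/kg per day for 5 days. This alternative keeps the other 9 mice and is therefore not an independent comparison. MPTP and IRISIN mice also differ in irisin, so with this reference the effects of MPTP and of irisin cannot be told apart.

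Of 21153 genes tested in both experiments, 23 (0.109%) differed in their change with MPTP between the 2 schedules at an adjusted p under 0.05 and are called below (Wald test on the edgeR estimates of both experiments, two-sided, Benjamini-Hochberg). The difference was positive, toward higher expression with recent MPTP, in 10 genes and negative in 13. At an unadjusted p under 0.05 there were 1195 genes, 614 positive and 581 negative. The median difference over all genes was 0.01 on the log2 scale. With IRISIN mice as reference 12 genes passed, 7 of them among the 23. Without the 4 mice rich in Ttr 21 passed, 9 of them among the 23, but that fit holds 1 CONTROL mouse, which is assumed to vary like the mice of the other groups. Within the experiments, 5 of 22641 genes (0.0221%) were called with recent MPTP and 29 of 21922 (0.132%) with earlier MPTP, and 0 genes were called in both. Across the genes tested in both, the 2 changes correlated with a Pearson's r of 0.0448 and a Spearman's rho of 0.101, a description over genes that share their libraries.

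**Figure D1:**
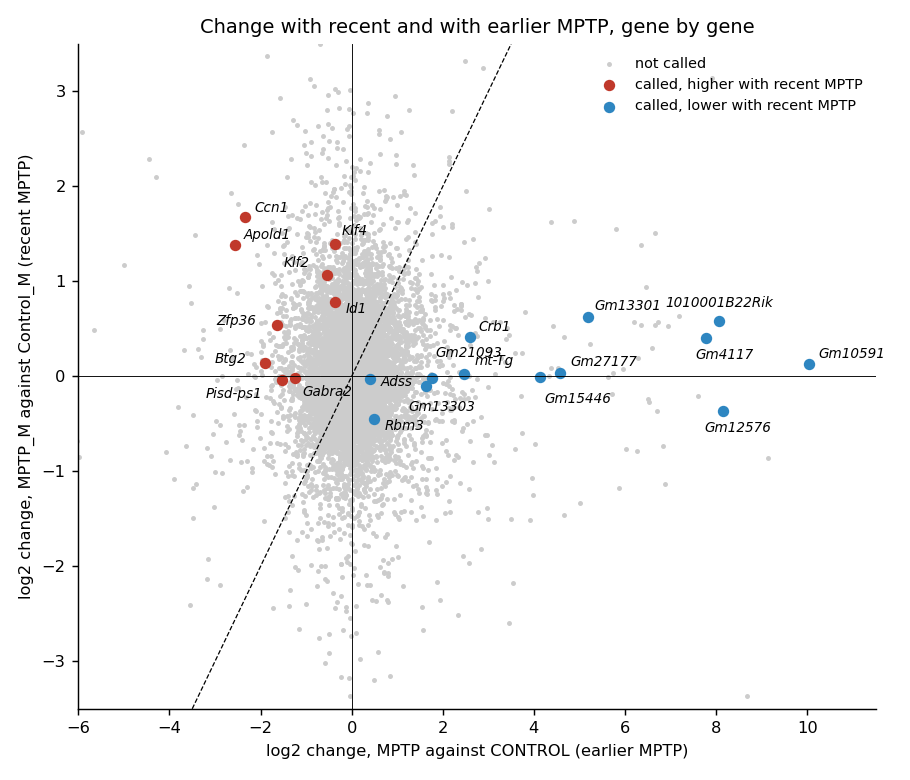
Each point is a gene tested in both experiments. The horizontal axis gives the log2 change of MPTP against CONTROL mice, the vertical axis that of MPTP_M against Control_M mice, and the dashed line marks equal change. The red genes differed toward recent MPTP and the 13 blue genes toward earlier MPTP. Most blue genes spread to the right along a vertical change near 0, and 62 genes lie outside the axes.

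The 23 genes fell into different patterns. Among the 10 positive genes were 7 early-response genes, Apold1, Ccn1, Btg2, Zfp36, Klf2, Klf4 and Id1, and all 7 were also called with IRISIN mice as reference. These 7 genes were grouped under this name after their values were seen. IRISIN mice had a higher mean CPM than CONTROL mice in Apold1 (40.1 against 22.65) and Btg2 (60.8 against 40.4). The same held for Zfp36 (27.0 against 20.5) and Klf4 (16.75 against 11.4). Means were lower in IRISIN mice for Klf2 (10.7 against 12.8), Ccn1 (18.0 against 18.4) and Id1 (17.2 against 17.35). Gabra2 and Pisd-ps1 were also among the 10. In all 13 negative genes the CONTROL mice lay below all 9 other mice of their experiment, against 3.31% of all genes tested in both for either side. That share is no like measure for called genes, since a negative difference favours MPTP mice, 3 of the 9, above CONTROL mice. With IRISIN mice as reference, 0 of the 13 were called by edgeR and 2 had an unadjusted p under 0.05.

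Apold1 encodes an apolipoprotein L domain protein of endothelial cells that is transcribed as an early-response gene (ENSMUSG00000090698, chr6:134981718-134986836, GRCm38). It stood at 9.55, 11.9 and 12.3 CPM in Control_M mice and at 36.3, 29.3 and 22.6 in MPTP_M mice. In the delayed experiment it was at 16.3, 14.2 and 37.5 CPM in CONTROL mice and at 4.11, 4.43 and 2.98 in MPTP mice. The groups did not overlap in either experiment, and they were ordered oppositely, higher after recent MPTP and lower after earlier MPTP. The log2 change was 1.39 ± 0.19 (SE, n = 3 against 3, adjusted p = 0.149) with recent MPTP and -2.56 ± 0.36 (adjusted p = 0.0308) with earlier MPTP. The difference was 3.94 ± 0.41 (adjusted p = 0.000293), and 4.77 with IRISIN mice as reference (adjusted p = 5.74e-05).

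Ccn1 encodes a matricellular protein that is induced by serum and growth factors (ENSMUSG00000028195, chr3:145646976-145649981). Control_M mice had 2.63, 5.99 and 6.74 CPM and MPTP_M mice 19.5, 19.3 and 10.4. CONTROL mice had 13.0, 7.49 and 34.7 CPM and MPTP mice 3.67, 3.99 and 3.23. Again both pairs of groups were free of overlap and opposite in order. Neither change passed on its own, with adjusted p = 0.576 for recent and 0.127 for earlier MPTP, whereas their difference of 4.02 ± 0.56 did (adjusted p = 0.00198). Against IRISIN mice it was 3.98.

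Btg2, an antiproliferative early-response gene and target of p53 (ENSMUSG00000020423, chr1:134075170-134079120), differed through the earlier schedule. It was at 34.4, 26.5 and 60.2 CPM in CONTROL mice and at 11.1, 11.2 and 10.4 in MPTP mice, a log2 change of -1.89 ± 0.26 (adjusted p = 0.0236). In the pre-treatment experiment, Control_M mice (15.4, 16.0 and 17.9 CPM) and MPTP_M mice (20.4, 19.0 and 14.8 CPM) overlapped. The difference was 2.03 ± 0.29 (adjusted p = 0.00585), and 2.62 against IRISIN mice. Zfp36 encodes tristetraprolin, which binds AU-rich elements and speeds the decay of cytokine and early-response transcripts (ENSMUSG00000044786, chr7:28376784-28380253). It followed the same pattern, at 18.3, 14.3 and 28.9 CPM in CONTROL mice against 6.25, 5.82 and 7.76 in MPTP mice, with a difference of 2.17 ± 0.35 (adjusted p = 0.00857), and 2.57 against IRISIN mice. Its recent groups overlapped, at 4.01 to 6.80 CPM in Control_M and 6.45 to 11.2 in MPTP_M mice. In these 4 genes CONTROL replicate 3 was the highest of the CONTROL mice, and it was not one of the mice rich in Ttr.

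Klf2 and Klf4 encode Kruppel-like zinc finger factors that endothelial cells induce under flow, and both differed mainly through the recent schedule. Klf4 (ENSMUSG00000003032, chr4:55527143-55532466) was at 5.62, 6.30 and 7.23 CPM in Control_M mice and at 16.0, 17.1 and 17.2 in MPTP_M mice. Its log2 change with recent MPTP was 1.39 ± 0.13 (adjusted p = 0.0211), while CONTROL mice (8.02 to 14.5 CPM) and MPTP mice (8.02 to 9.46 CPM) overlapped. The difference was 1.76 ± 0.29 (adjusted p = 0.0175), and 2.32 with IRISIN mice as reference. Klf2 (ENSMUSG00000055148, chr8:72319033-72321656) was at 12.35, 12.04 and 13.3 CPM in Control_M and 29.3, 27.3 and 22.8 in MPTP_M mice. In the delayed experiment it was at 15.2, 10.9 and 12.4 CPM in CONTROL mice and at 9.78, 8.67 and 8.07 in MPTP mice. Neither pair overlapped, and the difference was 1.61 ± 0.22 (adjusted p = 0.00189), or 1.35 with IRISIN mice as reference. Id1, which encodes an inhibitor of basic helix-loop-helix factors (ENSMUSG00000042745, chr2:152736251-152737410), was at 7.36 to 8.31 CPM in Control_M, 12.1 to 14.7 in MPTP_M, 14.9 to 19.9 in CONTROL and 12.5 to 14.0 in MPTP mice, a difference of 1.15 ± 0.20 (adjusted p = 0.0139). Against IRISIN mice it was 1.14.

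**Figure D2:**
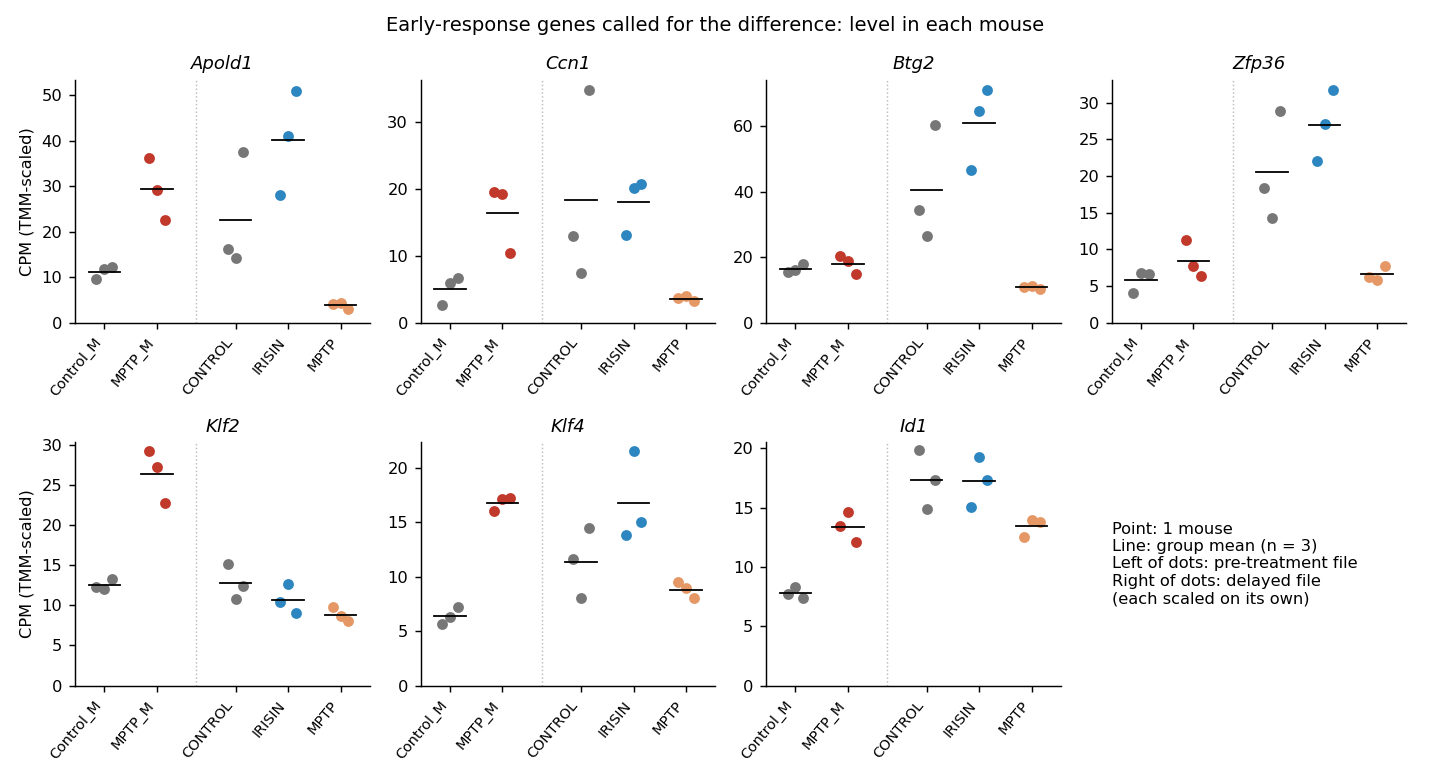
CPM of the 7 early-response genes in each mouse (points) with the group mean (line, n = 3). The dotted line separates the pre-treatment experiment from the delayed one, which were scaled separately. In Apold1 and Ccn1 the MPTP_M mice lie above the Control_M mice and the MPTP mice below the CONTROL and IRISIN mice. In Btg2 and Zfp36 the separation is in the delayed experiment and in Klf2, Klf4 and Id1 mainly in the pre-treatment one.

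These 7 genes held up unequally when the processing was varied. Apold1 and Ccn1 passed in 25 of 25 alternatives, Btg2, Zfp36 and Klf2 in 24, Id1 in 20 and Klf4 in 17. The call for Klf4 was lost without any one of the MPTP mice or without CONTROL replicate 1 or 3, with differences of 1.55 to 1.82. That for Id1 was lost without MPTP replicate 1 or 2 or CONTROL replicate 1 or 3 (1.05 to 1.18). One of these alternatives leaves out the 4 mice rich in Ttr, and there Klf2, Klf4 and Id1 did not pass. Its 1 CONTROL mouse was replicate 3, the highest CONTROL mouse for Apold1, Ccn1, Btg2 and Zfp36, so it is no check of these 4 genes. The levels in the irisin groups are given as a description, since the 7 genes were chosen for high levels in MPTP_M or low levels in MPTP mice, which favours the orders that follow. Irisin_MPTP_M mice, which received irisin for 5 days and then MPTP for 5 days, lay below all MPTP_M mice in 7 of the 7 genes (7.28% of all genes). They lay below all Control_M mice in 4 of the 7 (7.0%), with Apold1 at 2.62 to 3.46 CPM and Klf2 at 4.45 to 6.17. In the delayed experiment MPTP_IRISIN mice lay above all MPTP mice in 6 of the 7 genes (5.35%).

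The proximal promoters of the 4 genes with the largest differences among the early-response genes are shown because such promoters are known for sites of signal-dependent factors. They are the 250 bases before the transcription start from RefSeq (GRCm38.p6), which had an entry for 6 of the 7 genes and none for Id1. Apold1 is at chr6:134981751-134982000 (+ strand), Ccn1 at chr3:145649986-145650235 (- strand), Btg2 at chr1:134079156-134079405 (- strand) and Zfp36 at chr7:28379229-28379478 (- strand). Capitals mark the half-site of the cyclic AMP response element, TGACG on either strand, and in Zfp36 the CArG box, the site of serum response factor.
Apold1: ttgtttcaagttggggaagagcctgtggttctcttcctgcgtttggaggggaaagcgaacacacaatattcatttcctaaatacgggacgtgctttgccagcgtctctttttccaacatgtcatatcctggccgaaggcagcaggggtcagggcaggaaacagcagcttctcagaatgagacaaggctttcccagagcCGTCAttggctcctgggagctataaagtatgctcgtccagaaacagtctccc
Ccn1: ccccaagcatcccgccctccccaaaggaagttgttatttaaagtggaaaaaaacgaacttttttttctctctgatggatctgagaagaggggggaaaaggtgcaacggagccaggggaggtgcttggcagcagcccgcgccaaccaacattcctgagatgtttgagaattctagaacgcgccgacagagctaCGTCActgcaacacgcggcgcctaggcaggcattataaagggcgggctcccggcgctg
Btg2: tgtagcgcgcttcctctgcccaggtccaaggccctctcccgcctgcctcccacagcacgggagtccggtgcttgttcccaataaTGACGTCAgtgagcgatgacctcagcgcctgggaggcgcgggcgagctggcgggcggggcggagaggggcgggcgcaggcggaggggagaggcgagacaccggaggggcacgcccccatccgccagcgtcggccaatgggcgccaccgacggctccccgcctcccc
Zfp36: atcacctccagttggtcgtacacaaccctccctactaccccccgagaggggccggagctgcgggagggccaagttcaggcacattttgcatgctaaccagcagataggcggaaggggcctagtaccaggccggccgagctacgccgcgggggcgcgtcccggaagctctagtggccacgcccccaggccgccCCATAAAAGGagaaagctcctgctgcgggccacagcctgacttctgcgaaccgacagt
The half-site TGACG occurred in 5 of the 6 promoters, against 17.8% of 32851 mouse promoters of this length. In Btg2 2 such half-sites overlap head to head in the full element. The CArG box occurred in 1 of the 6 (1.47% of all), the GC box GGGCGG in 5 (32.7%) and the AP-1 site TGANTCA in 0 (6.75%). Both strands were searched, and a match or its absence is a description of these letters in this window only.

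In the wider list of AP-1 and Egr immediate early genes, 21 of 22 members were tested (Fosl1 was too low). Of these 1 passed for the difference, Btg2. At an unadjusted p under 0.05, 8 of the 21 differed toward recent MPTP (2.9% of all genes) and 2 toward earlier MPTP (2.75%). The 8 were Btg2, Csrnp1, Jun, Jund, Nr4a1, Ier2, Atf3 and Maff. Csrnp1, a nuclear factor of the cysteine-serine-rich family, was at 5.50 to 5.71 CPM in Control_M, 7.93 to 9.26 in MPTP_M, 9.13 to 12.9 in CONTROL and 5.47 to 7.86 in MPTP mice. Its difference of 1.30 ± 0.25 had an adjusted p of 0.0634, and 0.0125 with IRISIN mice as reference. Atf3, a stress-induced factor of the ATF family, stood at 1.10 to 1.83 CPM in Control_M and 4.35 to 6.30 in MPTP_M mice, and its groups overlapped in the delayed experiment, where CONTROL replicate 3 had 4.70 CPM. Jun, a subunit of AP-1, was higher in all CONTROL mice (53.1 to 64.9 CPM) than in all MPTP mice (38.2 to 44.9), with overlap between the recent groups.

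Other members did not pass and differed in sign. Fos, an AP-1 subunit, had a difference of 0.32 ± 0.25, Egr1 of -0.13 ± 0.41 and Npas4 of 0.09 ± 0.31, and their groups overlapped in both experiments. Fosb, another AP-1 subunit, had a difference of 0.71 ± 0.38 and Nr4a3, an orphan nuclear receptor, of -1.14 ± 0.54 (adjusted p = 0.884). Arc, a gene of synaptic plasticity, and Ier5 were the 2 genes toward earlier MPTP. Arc was at 30.3 to 37.4 CPM in CONTROL and 38.1 to 50.7 in MPTP mice, with overlap between Control_M and MPTP_M mice, and a difference of -0.72 ± 0.19 (adjusted p = 0.319). Over the 21 members the median log2 change was 0.09 with recent and -0.32 with earlier MPTP, and the median difference 0.38. With IRISIN mice as reference 3 of the 21 passed and the median difference was 0.54.

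Of 15 genes that feed back on ERK and MAP kinases, 0 passed for the difference by edgeR and by limma and 1 by DESeq2. By edgeR 4 had an unadjusted p under 0.05, all toward recent MPTP (2.9% of all genes). In 3 of the 15 all MPTP mice lay below all CONTROL mice (8.11% of all genes) and in 2 above (1754 of 21153 genes). In 2 all MPTP_M mice exceeded all Control_M mice (5.74%), and in 0 they lay below (1266 of 21153 genes). Dusp1, a nuclear phosphatase that inactivates MAP kinases, was at 45.4, 35.3 and 55.9 CPM in CONTROL and 19.5, 24.1 and 19.0 in MPTP mice, while Control_M and MPTP_M mice overlapped. Sik1, a salt-inducible kinase under control of cyclic AMP, had the same order, at 20.1 to 28.3 CPM in CONTROL and 11.46 to 14.1 in MPTP mice. Dusp6, a cytoplasmic phosphatase for ERK, had the opposite order in the other experiment. It was higher with MPTP there, at 11.54 to 15.8 CPM in Control_M and 18.4 to 21.5 in MPTP_M mice. None of these 3 differences passed, with adjusted p = 0.266 for Dusp1, 0.258 for Sik1 and 0.812 for Dusp6. Among the 14 Kruppel-like factors tested only Klf2 and Klf4 passed for the difference, and in 7 of the 14 all MPTP_M mice exceeded all Control_M mice (5.74% of all genes). Those 7 were Klf2, Klf4, Klf6, Klf9, Klf12, Klf13 and Klf15.

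Among the genes called with recent MPTP were also Snrnp35, Mxd4 and Isca1, named after their values were seen, and their differences did not pass. Isca1, an iron-sulphur cluster assembly gene, was at 166 to 184 CPM in Control_M and 79.4 to 85.7 in MPTP_M mice. Within the delayed groups it took both levels, at 74.5, 65.9 and 177.6 CPM in CONTROL and 189.7, 75.0 and 183.3 in MPTP mice. Mxd4, a MAX dimerization partner, likewise had 1 of 3 MPTP mice at 91.2 CPM and the others at 61.3 and 61.8.

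Gabra2 and Pisd-ps1 both differed through the CONTROL mice. Gabra2 encodes the alpha 2 subunit of the GABA-A receptor and was at 55.0, 67.6 and 72.3 CPM in CONTROL mice, 24.7, 30.2 and 27.1 in MPTP mice and 27.4 to 37.3 in IRISIN mice. The Control_M and MPTP_M mice overlapped at 34.3 to 38.5 CPM. Its difference of 1.23 ± 0.16 (adjusted p = 0.00198) was 0.16 with IRISIN mice as reference. Pisd-ps1, a pseudogene that shares sequence with Pisd and whose counts are uncertain for that reason, went from a difference of 1.5 ± 0.26 (adjusted p = 0.0175) to -0.09. Its call was lost without any one of the MPTP mice or without CONTROL replicate 1 or 3, with differences of 1.39 to 1.53.

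The 13 negative genes were Gm15446, Gm10591, Crb1, mt-Tg, Gm27177, Gm13303, Gm12576, Gm4117, Gm13301, Gm21093, 1010001B22Rik, Adss and Rbm3. Gm15446, a predicted gene on chr5:109923400-109943936, was at 0.64, 1.49 and 1.29 CPM in CONTROL mice and at 21.1, 21.05 and 18.7 in MPTP mice. IRISIN mice had 23.8 to 26.8 CPM, and Control_M and MPTP_M mice 36.6 to 45.8. The CONTROL mice were the lowest of these groups, and the difference of -4.15 ± 0.24 (adjusted p = 4.78e-07) became 0.31 with IRISIN mice as reference. Crb1, which encodes a cell polarity protein of the Crumbs complex, was at 0.39 to 0.69 CPM in CONTROL, 3.10 to 3.66 in MPTP and 3.57 to 4.70 in IRISIN mice, and its difference went from -2.17 to 0.72. The mitochondrial transfer RNA gene mt-Tg was at 0.33 to 0.92 CPM in CONTROL, 3.16 to 3.64 in MPTP and 3.59 to 4.44 in IRISIN mice.

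In 4 of the negative genes the CONTROL mice had 0 counts, namely Gm10591, Gm12576, Gm4117 and 1010001B22Rik. Taking 3 counts over the CONTROL group as the limit that a count of 0 allows, Gm10591 was at least 119-fold higher in MPTP mice, Gm12576 at least 32.1-fold, 1010001B22Rik at least 30.3-fold and Gm4117 at least 24.9-fold. The negative genes lay partly side by side. Gm10591, Gm13303, Gm13301 and Gm21093 are 4 of the 20 tested genes of a stretch of chromosome 4. It holds near-identical gene copies, so that their counts are uncertain. CONTROL mice were lowest in 6 of the 20 (3.31% of all genes for either side). These 6 include the 4 called genes, which singled out the stretch. Gm15446 and 1010001B22Rik are neighbours on chromosome 5. Several of these calls were lost under alternatives. That for 1010001B22Rik was lost in 12 of 24 alternatives, among them leaving out any one MPTP or CONTROL mouse. Gm21093 lost it in 9 of 25, among them leaving out any one MPTP mouse or CONTROL replicate 1 or 3 (-1.85 to -1.60). Gm13301 lost it in 8 of 24, among them leaving out MPTP replicate 2 or any one CONTROL mouse (-5.44 to -4.25). In 1 more its difference took the opposite sign and was not called. For Gm4117 it was lost in 6 of 24 and for Gm12576 in 5 of 24. The last 2 genes had smaller differences. Adss, an enzyme of adenine nucleotide synthesis, was at 75.2 to 84.7 CPM in CONTROL and 103.3 to 107.4 in MPTP mice, a difference of -0.41 ± 0.08 (adjusted p = 0.0467). That call was lost in 15 of 25 alternatives, among them leaving out any one mouse but Control_M replicate 1 and CONTROL replicate 3, with differences of -0.43 to -0.37.

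Rbm3, which encodes a cold-inducible RNA-binding protein, was the only negative gene whose groups were free of overlap and opposite in order in the 2 experiments. It was at 76.8, 81.0 and 76.1 CPM in Control_M mice and at 60.5, 50.3 and 60.6 in MPTP_M mice. In the delayed experiment it was at 41.0, 44.0 and 32.5 CPM in CONTROL mice and at 57.3, 57.3 and 50.9 in MPTP mice. It was lower after recent and higher after earlier MPTP without overlap, with changes of -0.45 ± 0.13 and 0.49 ± 0.13 and a difference of -0.94 ± 0.18 (adjusted p = 0.0487). The call was lost in 15 of 25 alternatives, among them the one with IRISIN mice as reference, where the difference was -0.54. Leaving out any one mouse but CONTROL replicate 2 ended it, with differences of -0.99 to -0.82.

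**Figure D3:**
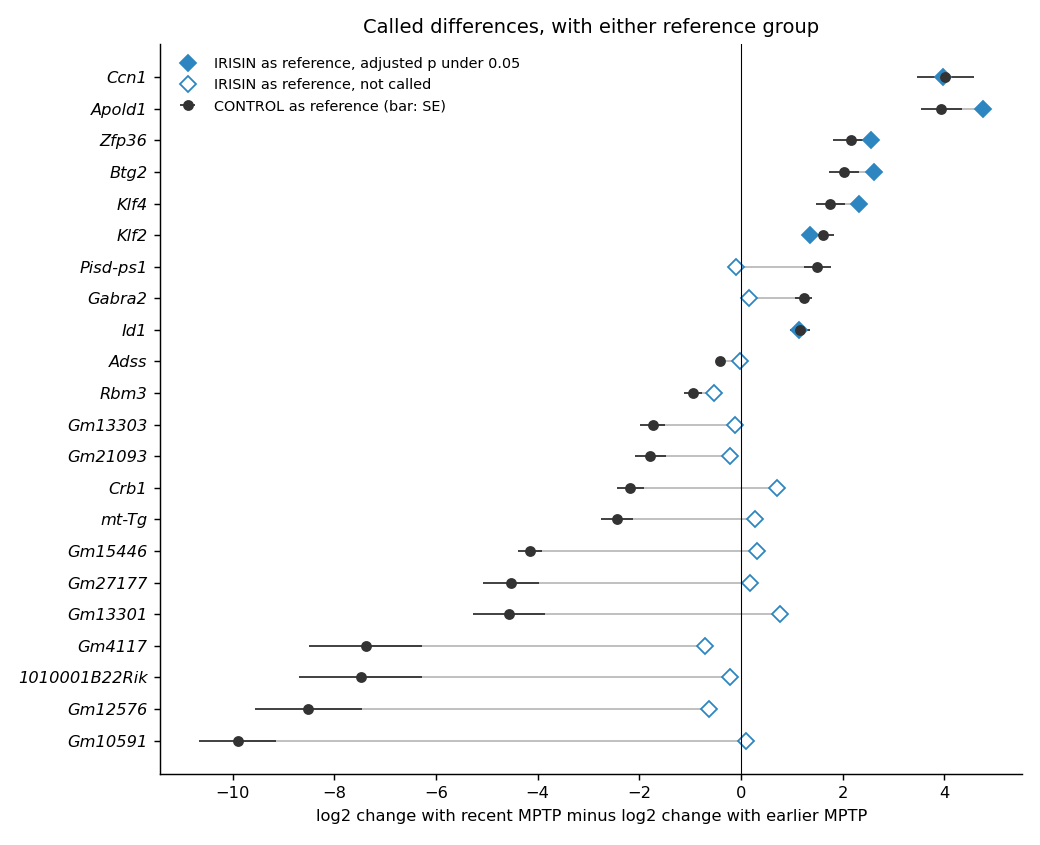
The log2 difference (recent minus earlier) of the called genes named in the text with CONTROL mice as reference for earlier MPTP (black, bar: SE) and with IRISIN mice as reference (blue, filled where the adjusted p was under 0.05). The 7 early-response genes stay between 1.14 and 4.77, and the 13 negative genes move toward 0 or past it.

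Dopaminergic neuron genes were measured because these neurons are the toxin's target. Some of the listed genes, Ddc and Slc18a2 among them, are also expressed by serotonergic neurons. All 20 listed genes were tested, and 0 passed for the difference by edgeR, DESeq2 or limma, with 2 at an unadjusted p under 0.05 by edgeR. With earlier MPTP, 12 of the 20 were lower in all MPTP mice than in all CONTROL mice (8.11% of all genes) and 11 had an unadjusted p under 0.05 in that direction (4.01%). By edgeR 0 of them passed, and by DESeq2 3. With recent MPTP, 0 of the 20 were without overlap. Of them 1, Slc6a3, had an unadjusted p under 0.05, toward lower levels (605 of 22641 genes). The median log2 change was -0.40 with earlier and 0.05 with recent MPTP, against medians near 0 for all genes, and the median difference was 0.43. Against IRISIN mice the median change with earlier MPTP was -0.14, with 6 genes at an unadjusted p under 0.05, and the median difference 0.29. In bulk tissue fewer dopaminergic neurons and less RNA per neuron cannot be told apart.

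Th, the rate-limiting enzyme of dopamine synthesis, was at 63.3, 59.2 and 50.9 CPM in CONTROL and 31.0, 31.5 and 46.1 in MPTP mice, and at 34.3, 50.1 and 55.1 in Control_M and 34.2, 51.6 and 31.5 in MPTP_M mice. Its log2 change was -0.68 ± 0.14 with earlier and -0.25 ± 0.26 with recent MPTP, and the difference was 0.43 ± 0.30 (adjusted p = 0.963). Slc6a3, the dopamine transporter, was at 62.9, 66.2 and 67.4 CPM in CONTROL and 15.3, 24.3 and 53.5 in MPTP mice. In the pre-treatment experiment it was at 58.9, 105.8 and 105.2 CPM in Control_M and 51.3, 65.5 and 52.1 in MPTP_M mice. The log2 change of Slc6a3 was -1.08 ± 0.37 with earlier and -0.68 ± 0.23 with recent MPTP, and the difference was 0.40 ± 0.43 (adjusted p = 0.991). Both genes had lower means with MPTP in either schedule, and neither difference passed the test. Nr4a2 and Foxa1, transcription factors of these neurons, were the 2 genes with an unadjusted p under 0.05 for the difference, at 0.74 ± 0.31 and 1.22 ± 0.48.

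MPTP_M replicate 2 stood apart in markers of other cells. It was the mouse with 1539 CPM of Ttr, and it also had 171 CPM of Tph2, a gene of serotonergic neurons, against 22.6 and 45.3 in the other MPTP_M mice. Its Ddc (143 CPM) and Slc18a2 (169.7 CPM), which serotonergic neurons also express, were the highest of the 12 mice. The summed level of the 6 serotonergic genes was 50.6 to 169.9 CPM in Control_M, 89.1 to 324 in MPTP_M, 127.5 to 230.2 in CONTROL and 87.6 to 268 in MPTP mice. Without this mouse the median change of the 20 dopaminergic genes with recent MPTP was -0.20, and the median difference went from 0.43 to 0.22 with 0 genes at an unadjusted p under 0.05. Over all 12 ways to leave out 1 mouse the median difference ranged from 0.22 to 0.55. The part of the dissection in this result was not tested.

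**Figure D4:**
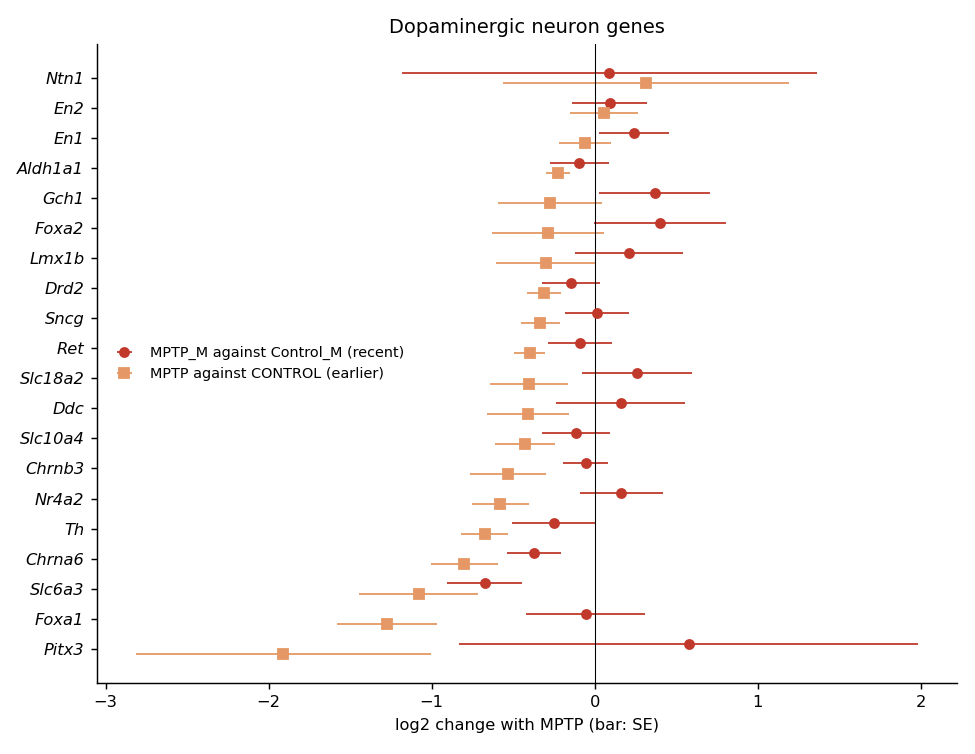
Log2 change with recent (red circles) and earlier MPTP (orange squares) of the 20 dopaminergic neuron genes, with standard errors. With earlier MPTP 18 of the 20 lie below 0, and with recent MPTP the genes spread around 0.

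The 13 protein-coding genes of the mitochondrial genome were measured because MPTP acts on complex I, part of which they encode. All 13 had negative changes in both schedules, with a median of -0.11 with recent and -0.31 with earlier MPTP. With earlier MPTP 10 of the 13 had an unadjusted p under 0.05 (4.01% of all genes), and 2 against IRISIN mice. Of the 13, 1 passed with earlier MPTP by edgeR, mt-Cytb, at 9158, 9926 and 10450 CPM in CONTROL and 7559, 7453 and 8082 in MPTP mice. For the difference 0 passed by edgeR, DESeq2 or limma, and the count at an unadjusted p under 0.05 was 3 by edgeR and 0 by DESeq2 and limma. The median difference of 0.18 was 0.00 against IRISIN mice. It was 0.07 without Control_M replicate 1, with 0 genes at an unadjusted p under 0.05, and 0.31 without Control_M replicate 2, with 10. Of the 37 nuclear-encoded complex I subunits 0 passed for the difference by edgeR, DESeq2 or limma, and 2 had an unadjusted p under 0.05. Their change was negative in 36 with recent MPTP (median -0.09) and in 29 with earlier MPTP (median -0.08).

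Stress genes were measured in 6 lists. The median change with recent MPTP was above 0 in glucocorticoid-responsive genes, chaperones of the endoplasmic reticulum and heat shock chaperones (0.11), and 0 genes of these 3 lists passed by edgeR in either contrast. It was -0.06 in integrated stress response genes, -0.05 in Nrf2 antioxidant genes and -0.05 in hypoxia and glycolysis genes. Among 17 genes known to respond to glucocorticoids, 9 had an unadjusted p under 0.05 toward higher levels with recent MPTP (3.36% of all genes). In 8 of the 17 all MPTP_M mice exceeded all Control_M mice (5.74%). For the difference 6 of the 17 had an unadjusted p under 0.05, all positive (2.9% of all genes), and 0 passed by edgeR, 1 by DESeq2 and 0 by limma. That count was 4 without CONTROL replicate 2 and 10 without CONTROL replicate 1. The medians were 0.35 with recent and 0.02 with earlier MPTP. With earlier MPTP, however, 5 of the 17 had an unadjusted p under 0.05 toward lower levels (4.01% of all genes). Toward higher levels there were 2 (947 of 21922 genes). Plin4, which coats lipid droplets, was at 1.70, 1.73 and 4.28 CPM in Control_M and 7.77, 13.5 and 10.6 in MPTP_M mice, with overlap between CONTROL and MPTP mice and a difference of 2.62 ± 0.51 (adjusted p = 0.057). Sgk1, a kinase of ion transport, was at 169 to 239.6 CPM in Control_M and 304 to 313 in MPTP_M mice. Zbtb16, a zinc finger factor, had 5.03 to 8.02 and 10.5 to 19.6 CPM. Fkbp5, the cochaperone most used as a marker of glucocorticoid action, had overlapping groups, with 12.8 CPM in MPTP_M replicate 2 and 33.4 and 36.9 in the other MPTP_M mice, and a difference of 0.21 ± 0.35.

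Of 18 chaperones of the endoplasmic reticulum, 17 had a positive difference, 4 with an unadjusted p under 0.05 (2.9% of all genes), and 0 passed by edgeR, DESeq2 or limma. All 18 had a positive change with recent MPTP (median 0.18), 7 at an unadjusted p under 0.05 (3.36%), while the median with earlier MPTP was -0.01. Hspa5, which encodes the chaperone BiP, was at 224 to 243 CPM in Control_M and 297 to 333 in MPTP_M mice, and its CONTROL and MPTP mice overlapped. Pdia4, a protein disulfide isomerase, was at 31.9 to 35.1 and 40.8 to 45.9 CPM. Of 20 heat shock chaperones 18 had a positive difference with a median of 0.12, which was 0.07 without MPTP_M replicate 3 and 0.04 without CONTROL replicate 3. Of the 20, 0 passed by edgeR, DESeq2 or limma. By edgeR 2 had an unadjusted p under 0.05 toward recent MPTP (2.9% of all genes) and 1 toward earlier MPTP (2.75%). These were Hsp90aa1 (0.68 ± 0.18), Hspb1 (0.65 ± 0.23) and Dnajb1 (-0.30 ± 0.12). Hspa1a and Hspa1b, the inducible HSP70 genes, differed by 0.06 ± 0.37 and 0.13 ± 0.30.

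**Figure D5:**
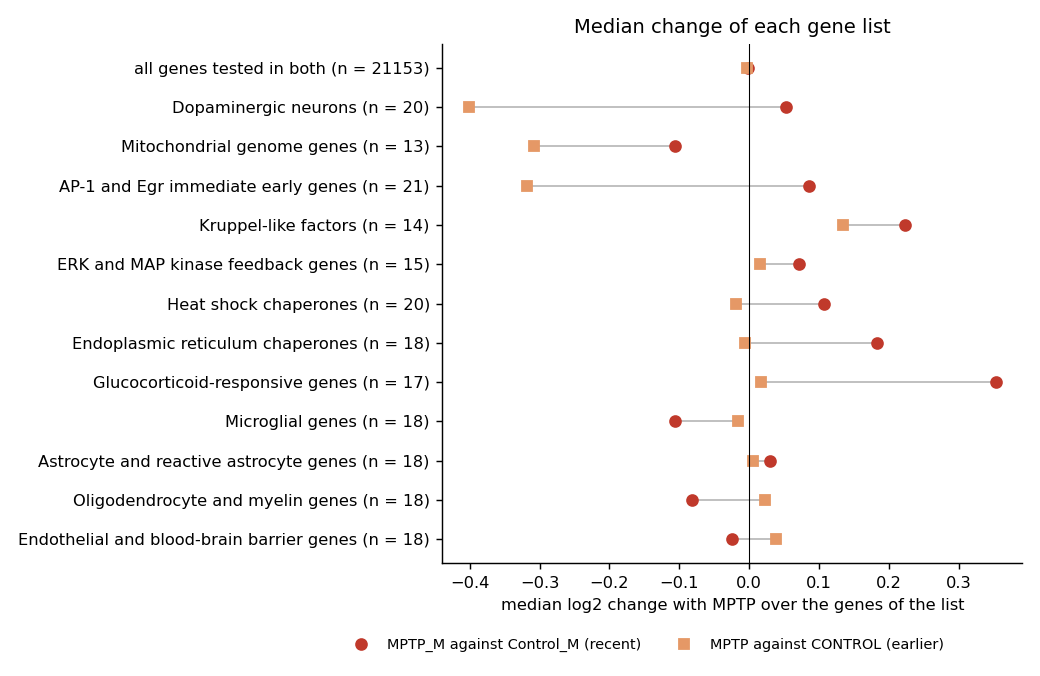
Median log2 change of 12 selected gene lists and of all genes with recent (red circles) and earlier MPTP (orange squares), with the number of genes tested. The median of all genes lies near 0 in both. Glucocorticoid-responsive genes (0.35), Kruppel-like factors (0.22) and chaperones of the endoplasmic reticulum (0.18) lie to the right with recent MPTP, and dopaminergic (-0.40), immediate early (-0.32) and mitochondrial genome genes (-0.31) to the left with earlier MPTP. Marker lists of neighbouring tissue are not drawn and reach further out, with choroid plexus genes at 2.18 and cerebellar genes at 1.47 with recent MPTP.

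Among the markers of glia and the genes of apoptosis, 0 passed for the difference by edgeR, DESeq2 or limma. Of 18 microglial genes 1 had an unadjusted p under 0.05, Itgam, which encodes an integrin of myeloid cells. It was at 9.69 to 21.5 CPM in Control_M and 6.99 to 9.18 in MPTP_M mice, with overlap between CONTROL and MPTP mice and a difference of -1.12 ± 0.41 (adjusted p = 0.724). Aif1, which encodes IBA1, differed by -0.22 ± 0.26, Gfap, the astrocyte filament, by -0.03 ± 0.24 and Olig2, an oligodendrocyte lineage factor, by 0.20 ± 0.14. Tubb3, a neuronal tubulin, differed by 0.17 ± 0.10 and Bdnf, a neurotrophin, by 0.07 ± 0.28. Of the apoptosis genes Bax differed by 0.09 ± 0.13 and Bcl2 by -0.04 ± 0.14. Of 18 oligodendrocyte genes 14 had a negative difference with a median of -0.18, among them Cnp at -0.42 ± 0.15 and Mog at -0.44 ± 0.18. Bcas1, another gene of that list, had a positive difference of 1.18 ± 0.46 (adjusted p = 0.754), with overlap in both experiments. Of the 18 endothelial genes Apold1 passed alone and the median difference was -0.01. The summed level of that list overlapped between Control_M (584 to 716 CPM) and MPTP_M mice (636 to 677 CPM).

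The 10 choroid plexus genes had a median difference of 2.76 by edgeR. Of them 6 had an unadjusted p under 0.05 toward recent MPTP (2.9% of all genes). By limma the median difference was 1.125, with 0 at an unadjusted p under 0.05. For the difference 0 of the 10 passed by edgeR or limma, and 0 of the 6 that DESeq2 tested. The summed level of the 10 genes was 34.95 to 44.9 CPM in Control_M, 37.6 to 1708 in MPTP_M, 267 to 1534 in CONTROL and 49.5 to 1578 in MPTP mice. Without MPTP_M replicate 2 the median difference was 0.56, with all 10 positive and 0 at an unadjusted p under 0.05. Without MPTP replicate 3 it was 4.075, with 8 at an unadjusted p under 0.05. The median change with recent MPTP was 2.18 with MPTP_M replicate 2 and 0.09 without that mouse.

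In the other lists the counts at an unadjusted p under 0.05 were set against 2.9% of all genes toward recent MPTP and 2.75% toward earlier MPTP. Of 18 hypoxia and glycolysis genes 3 had an unadjusted p under 0.05 toward recent MPTP and 1 toward earlier MPTP. Of 20 interferon-stimulated genes 2, of 18 clock genes 1 and of 19 cholesterol synthesis genes 1 had it toward earlier MPTP. Of 19 integrated stress response genes 1, of 18 Nrf2 antioxidant genes 1, of 18 astrocyte genes 1, of 16 apoptosis and p53 genes 1, of 9 striatal genes 2 and of 6 cerebellar genes 1 had it toward recent MPTP. The count was 0 in the 13 of 20 cytokine and NF-kB genes that could be tested (Tnf, Il1b, Il6, Ccl2, Ccl3, Ccl4 and Cxcl1 were too low), in 15 neurotrophic factors and receptors and in the cortical, hypothalamic, serotonergic and blood genes. In all lists of this paragraph 0 genes passed by edgeR and limma, and by DESeq2 1 integrated stress response gene passed. DESeq2 tested 14 of the 15 neurotrophic genes, 4 of 5 cortical, 3 of 6 cerebellar and 5 of 7 hypothalamic genes.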

How the data were processed

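RNA of midbrain tissue from single mice was sequenced. The authors deposited, for each experiment, a table of raw counts per gene and FPKM (fragments scaled by gene length and library size) per mouse. The labels name HISAT, StringTie and edgeR and the genome mm9, and the methods name featureCounts. The coordinates in the tables are those of GRCm38, which is used here.

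Counts were analysed with edgeR 4.0.16 in R 4.3.3 (filterByExpr at a minimum count of 10 and a minimum total of 15, TMM scaling, quasi-likelihood test), with all groups of an experiment in one fit. CPM was computed from the deposited counts. The difference of the changes with recent and earlier MPTP was divided by the root of the summed squared standard errors and referred to a t distribution with Welch-Satterthwaite degrees of freedom. All p-values were two-sided and adjusted by Benjamini-Hochberg over all genes tested. The computation was also run on simulated counts with equal group means or planted changes. These hold no reference group that stands apart from the other mice of its experiment, so the run does not bear on that feature.

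Alternatives were DESeq2 1.42.0, limma 3.58.1 on log2(FPKM + 1) and log2(FPKM + 0.1) of the deposited FPKM, other filters and scalings, only the compared groups, a replicate block, a joint fit and leaving out each mouse. IRISIN mice as reference and the omission of mice with over 1000 CPM of Ttr were added after seeing the data.

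The genes named were, by rule, the 10 largest called differences in each direction, the 3 genes with the smallest p in each of 29 lists, all dopaminergic and immediate early genes tested, and Th, Bdnf, Tubb3, Gfap, Olig2, Aif1, Bax and Bcl2. Some genes that the rule names are not reported here. Other genes were named after their values were seen. The groups compared and the lists were chosen with earlier results of these data known. Promoters came from RefSeq. Total counts were 48.8 to 77.2 M per mouse, and the bound for a count of 0 covers counting error only.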

Additional observations from a re-analysis of the deposited data

Results flagged for a closer look

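In 23 genes the change with MPTP differed between the 2 schedules by a test of the difference itself, given here as the log2 change with recent MPTP minus that with earlier MPTP. Toward recent MPTP these included Ccn1 (4.02), Apold1 (3.94), Zfp36 (2.17), Btg2 (2.03), Klf4 (1.76), Klf2 (1.61), Pisd-ps1 (1.5), Gabra2 (1.23) and Id1 (1.15).

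Toward earlier MPTP these were Adss (-0.41), Rbm3 (-0.94), Gm13303 (-1.74), Gm21093 (-1.78), Crb1 (-2.17), mt-Tg (-2.44), Gm15446 (-4.15), Gm27177 (-4.53), Gm13301 (-4.56), Gm4117 (-7.38), 1010001B22Rik (-7.48), Gm12576 (-8.51) and Gm10591 (-9.90). The fitted values of Gm4117, 1010001B22Rik, Gm12576 and Gm10591, which had 0 counts in the CONTROL mice, depend on the prior count and are no bounds. In all 13 the CONTROL mice lay below the 9 other mice of the delayed experiment, an order that the call itself favours.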

How the results depend on the processing

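The 23 genes called for the difference numbered 47 with DESeq2, which held all 23, 12 with IRISIN mice as reference and 14 to 33 when one mouse was left out (14 without MPTP replicate 2). The 29 genes called with earlier MPTP numbered 178 with DESeq2, 10 with only the compared groups in the fit, 17 with the replicate block, 8 with IRISIN mice as reference and 16 to 35 when one mouse was left out (18 without MPTP replicate 1 and 16 without replicate 2). The 5 genes called with recent MPTP numbered 91 with DESeq2, 10 with only the compared groups, 2 with the replicate block, 17 without the mice rich in Ttr and 7 to 17 when one mouse was left out. That count was 17 without MPTP_M replicate 2, 9 without MPTP_M replicate 3, and 12, 14 and 9 without Control_M replicates 1, 2 and 3. The cause was not tested. Deviations of same-numbered mice correlated at -0.071 to 0.101, so the numbers were not taken as pairs, and with the replicate block 18 differences passed, 16 of them among the 23.

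With IRISIN mice as reference the earlier change took the opposite sign in Pisd-ps1 (0.055), Gm13301 (-0.15), Gm27177 (-0.14), Gm15446 (-0.32), mt-Tg (-0.24) and Crb1 (-0.30). None of these changes passed by edgeR (adjusted p = 0.984 to 0.999). The difference took the opposite sign in Pisd-ps1 (-0.094), Gm10591 (0.11), Gm13301 (0.77), Gm27177 (0.17), Gm15446 (0.31), mt-Tg (0.27) and Crb1 (0.72). None of these differences passed the Wald test, with adjusted p from 0.699 (Crb1) to 0.993 (Gm10591). Over all alternatives, values of single genes kept their direction and call 5932 times, lost the call 217 times, gained it 44 times and changed sign 13 times. With 3 mice a group the median standard error of a difference was 0.29 on the log2 scale, which limits the precision.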
